A study of Ovis aries with 12 samples.

Results

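Aminoacyl-tRNA ligases, also called aminoacyl-tRNA synthetases, were followed in longissimus dorsi, a back muscle, from Tan sheep (Ovis aries) fed graded amounts of succinate. The members were all rows of the deposited expression table whose description named a tRNA ligase for an amino acid, 40 of 21257 genes. By their descriptions 21 were counted as cytosolic and 17 as mitochondrial. GARS1 and KARS1, each of which makes the glycine or lysine enzyme of both compartments from a single gene, formed a class of their own. All 40 passed the low-count filter that left 13319 genes for testing.

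The sheep were 5 months old and all received the same basal feed, 9 animals per diet and 36 in all. After 10 days of adaptation the trial ran for 60 days on that feed alone (control) or with added succinate, a TCA cycle metabolite, at 0.5% in SUC1, 1% in SUC2 and 2% in SUC3. RNA was sequenced in 3 libraries per diet, 12 in all. Whether each came from 1 sheep or from pooled animals was not stated, so p-values reflect only the spread among libraries, part of which may be technical.

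A tRNA ligase joins an amino acid to the tRNAs that carry its codons' anticodons, and so sets the reading of the genetic code. The cytosolic enzymes serve the ribosomes that make almost all muscle protein. A second, nuclear-encoded set is imported into mitochondria and charges the mitochondrial tRNAs, which are used to make the few respiratory chain subunits encoded in mitochondrial DNA. Several cytosolic enzymes are held with the scaffold proteins AIMP1, AIMP2 and EEF1E1 in the multisynthetase complex. Genes of many cytosolic ligases are known targets of ATF4, the transcription factor of the amino acid response, and LARS1 also senses leucine for the growth kinase complex mTORC1.

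Libraries held 15742428 to 18564057 counts, with 15137 to 15617 genes detected by at least 1 count. The 40 ligases together took 0.142% to 0.189% of a library's counts. Values by library are in CPM, read counts scaled to library size with TMM, a correction for library composition. Scaled to the library total alone, without TMM, 3 counts, the detection floor, came to 0.162 to 0.191 CPM, which covers counting error only. Of 9 skeletal muscle fibre markers, 8 were in the table, MYH7 being the other, and their sum was 108004 to 194847 CPM. In the principal components of all tested genes SUC2 replicate 2, SUC2 replicate 3 and SUC3 replicate 1 lay apart from the other libraries, so counts are also given without them below.

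The cytosolic ligases were more abundant than the mitochondrial ones per length of transcript. In FPKM (the authors' value scaled by gene length and library size), the median over members of the 12-library mean was 13.3 for the cytosolic class and 3.34 for the mitochondrial class, against 3.44 over all tested genes. Among the 17 mitochondrial ligases 15 lay between 1 and 10 FPKM, whereas 12 of 21 cytosolic ligases exceeded 10 FPKM. The summed FPKM of the cytosolic class was 3.40 to 4.23 times that of the mitochondrial class in the 12 libraries.

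KARS1, the lysine enzyme of both compartments, had the highest level, a mean of 101 FPKM with libraries from 81.3 to 126. FARSB, the beta subunit of the cytosolic phenylalanine enzyme, led the cytosolic class with a mean of 48.3 FPKM (36.7 to 64.6). Of the others, AARS1 for alanine had a mean of 36.4 FPKM and SARS1 for serine of 35.5 FPKM. No library of KARS1 fell into the range of any other ligase.

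**Figure D1:**
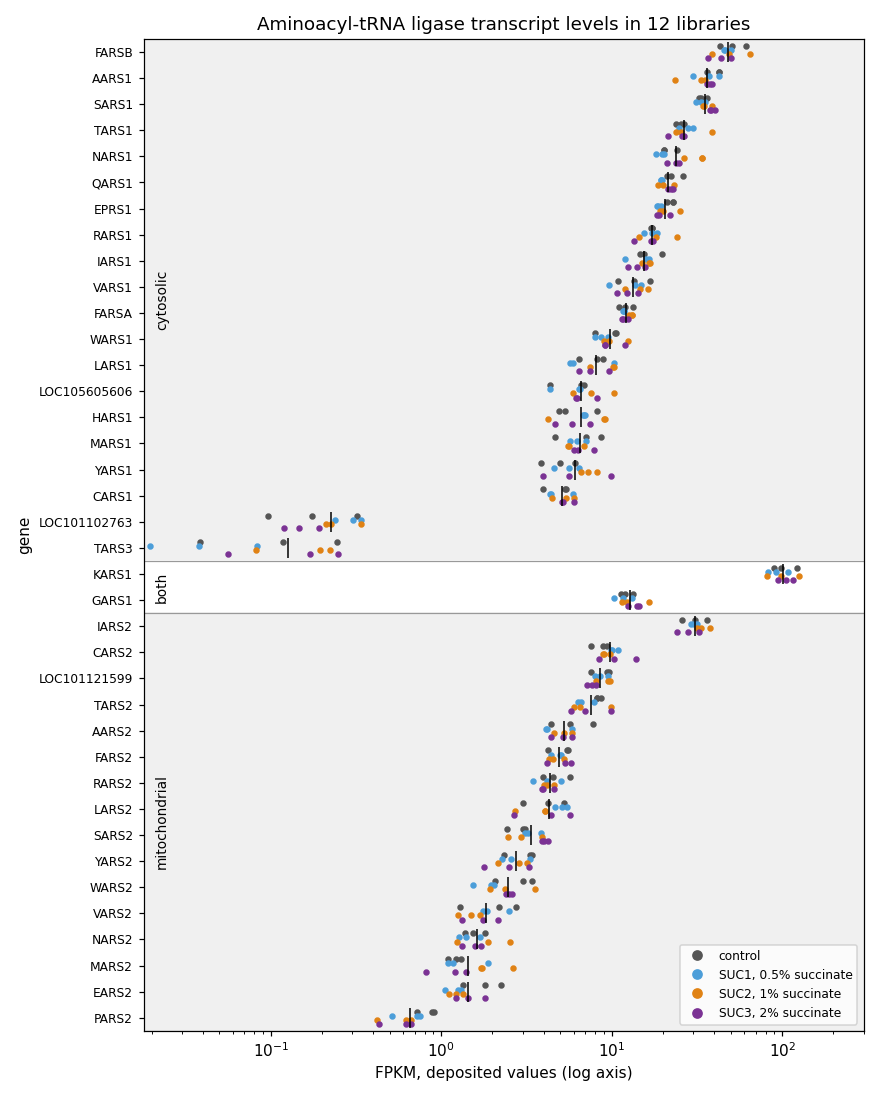
FPKM (log axis) of 38 of the ligases, genes on the vertical axis grouped by compartment; each point is a library coloured by diet and the black tick is the mean over 12 libraries. KARS1 lies highest with a mean of 101 FPKM, most mitochondrial ligases lie between 1 and 10 FPKM, and the points of the 4 diets overlap for most genes.

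IARS2, the mitochondrial isoleucine enzyme, stood above the rest of its class, with a mean of 31.0 FPKM (24.3 to 37.7). The next mitochondrial members were CARS2 for cysteine at 9.74 FPKM and LOC101121599, the histidine enzyme of mitochondria, at 8.57 FPKM. The lowest was PARS2 for proline, at 0.660 FPKM (0.419 to 0.906). No IARS2 library overlapped the range of another mitochondrial ligase.

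Low cytosolic rows were near the limit of detection. TARS3, the second cytosolic threonine enzyme, had 1 to 13 counts per library and LOC101102763, a row described as like the cytosolic tyrosine enzyme, had 4 to 14. No fold change is given for either. Their paralogs TARS1 and YARS1 had means of 26.7 and 6.10 FPKM.

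Within an amino acid the cytosolic enzyme was usually the more abundant, though not always. For 13 amino acids a cytosolic and a mitochondrial row were compared. The cytosolic member was higher in 12 of 12 libraries for 10 of these, with a median FPKM ratio from 14.6 for asparagine and 10.2 for serine down to 1.99 for leucine (LARS1 over LARS2). The order was turned for cysteine, where CARS2 exceeded CARS1 in 12 of 12 libraries by a median of 1.90 times, and for isoleucine, where IARS2 exceeded IARS1 in 12 of 12 by 2.00 times. For histidine the mitochondrial enzyme was higher in 11 of 12 libraries by a median of 1.23 times. The pairs left out TARS3 and LOC101102763. They also left out LOC105605606, a second row described as the cytosolic leucine enzyme, with a mean of 6.65 FPKM beside 8.08 for LARS1. The leucine ratio therefore covers LARS1 only.

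**Figure D2:**
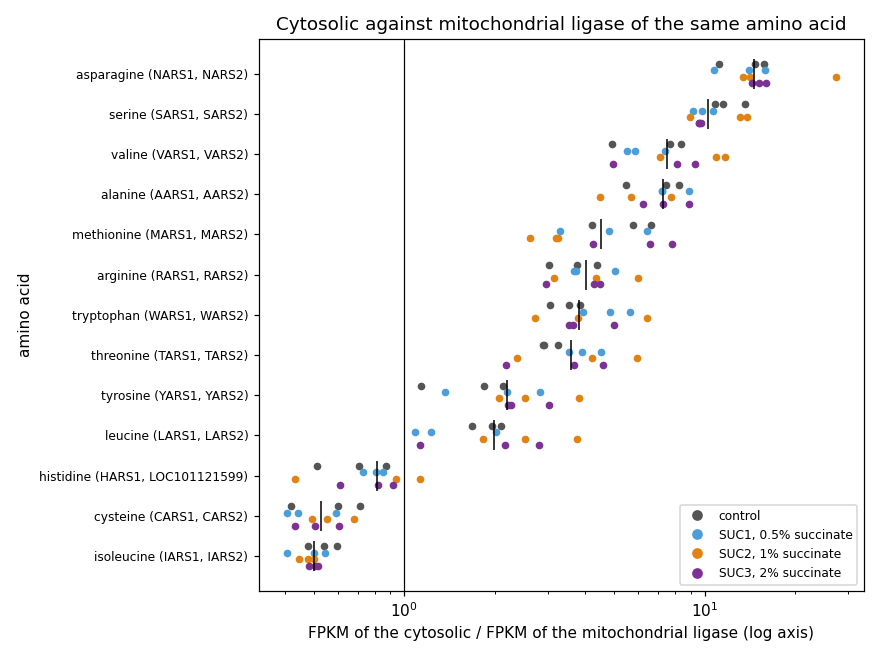
FPKM of the cytosolic over that of the mitochondrial ligase (log axis) for 13 amino acids; each point is a library coloured by diet, the black tick is the median of 12 libraries and the vertical line marks equal levels. Asparagine and serine lie at median ratios of 14.6 and 10.2, and cysteine and isoleucine lie to the left of the line in 12 of 12 libraries.

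The subunits of the cytosolic phenylalanine enzyme, which pair in equal numbers in the protein, were not equal as transcripts: FARSB exceeded FARSA by 2.93 to 5.12 times in FPKM. In raw counts, which do not correct for length, the ratio was 1.56 to 2.73. FARSA was the steadiest member, from 39.6 to 48.0 CPM over the 12 libraries, with a coefficient of variation within diets of 4.66%. The median of that coefficient was 15.7% over the 40 ligases and 23.9% over all tested genes, and 35 of 40 ligases lay below the latter. By class the median was 15.7% for cytosolic and 15.8% for mitochondrial ligases, with 17 of 21 and 16 of 17 below that of all tested genes. No test of this difference was made, and the part of abundance in it was not tested.

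None of the 40 ligases passed an adjusted p of 0.05 in any comparison of diets (edgeR quasi-likelihood test, Benjamini-Hochberg over 13319 genes). The share of all tested genes that passed was 0% for SUC1, 1.43% for SUC2 (0.773% higher and 0.661% lower) and 0.00751% for SUC3 against control, and 0.0225% in the joint test of any difference among the 4 diets. Between succinate diets it was 0% for SUC2 against SUC1, 0% for SUC3 against SUC1 and 0.015% for SUC3 against SUC2. DESeq2 and limma on log2 FPKM also called 0 ligases in each of these. DESeq2 called more of all tested genes than edgeR, 0.526% in SUC1, 6.31% in SUC2 and 1.81% in SUC3 against control. It called 42 genes for SUC2 against SUC1, 65 for SUC3 against SUC1, 239 for SUC3 against SUC2 and 798 in the joint test. The share that limma called is not given here. The control libraries are shared by the 3 comparisons with control, which are therefore not independent.

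At an unadjusted p under 0.05 the ligases were no more frequent than other genes. They numbered 2 of 40 in SUC1, 4 of 40 in SUC2 and 1 of 40 in SUC3, beside 7.61%, 17.9% and 12.4% of all tested genes. Between the succinate diets they numbered 3, 0 and 2 of 40 for SUC2 against SUC1, SUC3 against SUC1 and SUC3 against SUC2, beside 8.57%, 7.31% and 11.5%. The joint test gave 1 of 40, NARS1, beside 14.7%. Over the 6 pairwise comparisons 12 of 240 tests, 5%, had such a p.

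The precision bounded what could have been missed. The median half-width of the 95% interval of a ligase's log2 fold change was 0.43 in each comparison with control. The interval lay within 1 log2 unit of 0 for 37 of 40 ligases in SUC1, 33 of 40 in SUC2 and 37 of 40 in SUC3.

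**Figure D3:**
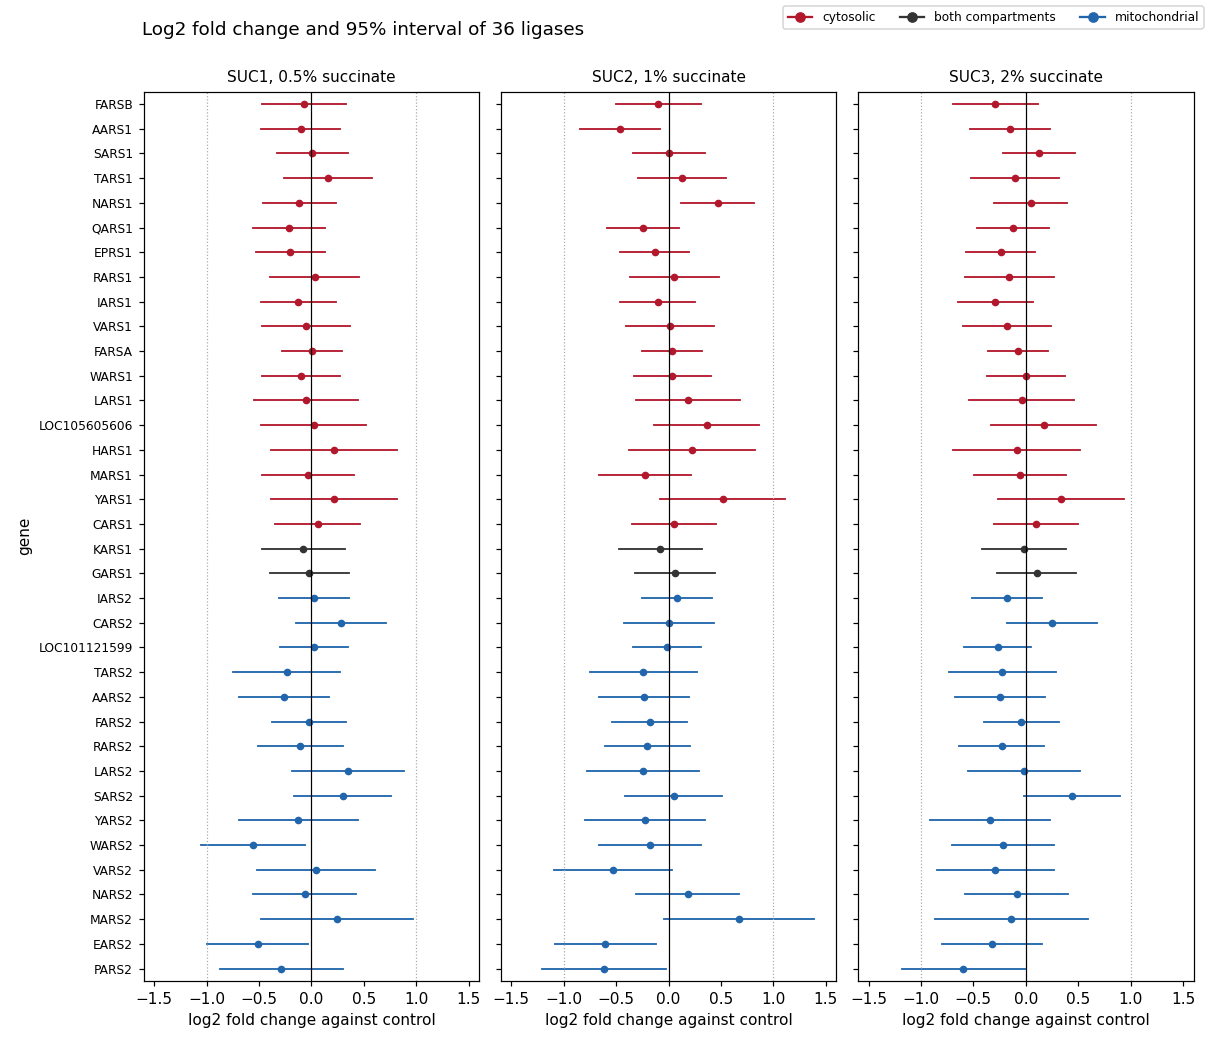
Log2 fold change against control (points) with its 95% interval (bars) from the edgeR fit for 36 ligases in each succinate diet, coloured by compartment; TARS3 and LOC101102763 are among those left out, for their low counts. Most intervals cross 0, dotted lines mark 1 log2 unit either way, and more of the mitochondrial points lie left of 0 in SUC3 than right of it.

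NARS1, the cytosolic asparagine enzyme (chromosome 23, 57181254 to 57202739, minus strand, as the table gives it), had the smallest p of any ligase in the joint test. Control libraries were at 68.5, 52.7 and 68.3 CPM, SUC1 at 58.8, 53.4 and 62.8 CPM, SUC2 at 74.2, 91.2 and 96.4 CPM, and SUC3 at 64.0, 69.1 and 62.4 CPM. All 3 SUC2 libraries lay above all 9 others, and the other 3 diets overlapped. The log2 fold change of SUC2 against control was 0.47 (SE 0.16, 95% interval 0.12 to 0.82; edgeR adjusted p = 0.154), and the adjusted p ran from 0.0843 to 0.412 over its alternatives. Against SUC1 the log2 fold change was 0.58 (edgeR adjusted p = 0.429), SUC3 against SUC2 gave -0.42 (adjusted p = 0.349), and the joint test had an adjusted p of 0.221. Among all tested genes with a symbol, those whose log2 CPM followed NARS1 most closely over the 12 libraries were CHKA, ELAVL1, PIGA, HNRNPA3 and SMARCC1, with Pearson correlations of 0.93, 0.91, 0.90, 0.88 and 0.88.

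AARS1, for alanine, was lower in SUC2 by value. Control libraries were at 142, 130 and 141 CPM, SUC1 at 148, 128 and 109, SUC2 at 116, 106 and 78.7, and SUC3 at 114, 127 and 130 CPM. SUC2 lay below control with no overlap, while SUC1 and SUC3 overlapped control. The log2 fold change in SUC2 was -0.46 (SE 0.18, 95% interval -0.84 to -0.08; edgeR adjusted p = 0.189).

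YARS1, for tyrosine, had 11, 13.6 and 12 CPM in control, 16.2, 11.3 and 14.9 in SUC1, 15.7, 16.6 and 19.9 in SUC2, and 12.8, 23.5 and 9.82 in SUC3. The SUC2 libraries stood above the control libraries, and the SUC3 libraries spread over both. Its log2 fold change in SUC2 was 0.51 (SE 0.28; edgeR adjusted p = 0.364).

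LOC105605606, on chromosome X, carries the same description as LARS1, the cytosolic leucine enzyme on chromosome 5. Its span in the table equals its transcript length, 3684 bases, so it has no intron there, and it overlaps ENOX2 on the other strand. Its libraries were at 18.6, 23.1 and 24.2 CPM in control and 21.3, 35.8 and 27.8 CPM in SUC2, which overlap, with a log2 fold change of 0.37 (SE 0.23; edgeR adjusted p = 0.452). LARS1 itself ran from 28.8 to 31.3 CPM in control and from 28.5 to 38.6 CPM in SUC2. Whether reads were shared between the near copies was not tested, so both values are uncertain.

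The phenylalanine subunit FARSB had 98.6, 109 and 99.1 CPM in control and 67.2, 95.3 and 88.0 CPM in SUC3. The groups did not overlap, and SUC3 replicate 1, which lay apart in all genes, was the lowest. The log2 fold change was -0.29 (SE 0.19; edgeR adjusted p = 0.553). FARSA was at 39.6, 44.5 and 44.1 CPM in SUC3 and overlapped control.

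The 8 ligases of the multisynthetase complex (among them EPRS1, which charges both glutamate and proline tRNAs, IARS1, LARS1, MARS1, QARS1, RARS1 and KARS1) had mostly negative values, in SUC3 partly through a single library. Their log2 fold change was negative for 7 of 8 in SUC1, 6 of 8 in SUC2 and 8 of 8 in SUC3, with medians of -0.10, -0.12 and -0.14, and none passed. Over all tested genes the medians were -0.01, 0.00 and -0.01. SUC3 replicate 1, which lay apart in all genes, was the lowest SUC3 library for 8 of 8 complex ligases. Without it 5 of 8 were negative in SUC3, with a median of -0.05. Without SUC2 replicate 3 the SUC2 median was -0.05 (5 of 8 negative), and without SUC1 replicate 3 the SUC1 median was -0.03 (7 of 8 negative). EPRS1 had 121, 102 and 110 CPM in control, 99.4, 92.5 and 98 in SUC1, 95.1, 116 and 93.2 in SUC2, and 84.4, 104 and 94.5 in SUC3. SUC1 alone lay below control with no overlap for EPRS1.

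The 14 cytosolic ligases outside the complex gave other counts. Their log2 fold change was positive for 8 of 14 in SUC1, 12 of 14 in SUC2 and 7 of 14 in SUC3, with medians of 0.01, 0.09 and -0.04. The SUC2 count was 9 of 14, with a median of 0.01, without SUC2 replicate 3, and 6 of 14, with a median of -0.04, without the 3 libraries that lay apart. The scaffold proteins of the complex showed no common direction: AIMP1 had log2 fold changes of -0.15, -0.12 and -0.21 in SUC1, SUC2 and SUC3, AIMP2 -0.14, 0.06 and -0.02, and EEF1E1 0.14, 0.31 and 0.16. None of these passed in edgeR. The difference between complex and other ligases was not tested.

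KARS1 and GARS1, which serve both compartments, lay near control. KARS1 had 287, 305 and 267 CPM in control, 264, 306 and 245 in SUC1, 264, 327 and 223 in SUC2, and 243, 281 and 325 in SUC3. GARS1 had 32.8, 27.0 and 32.9 CPM in control, 33.8, 29.6 and 27.8 in SUC1, 27.7, 38.7 and 30.2 in SUC2, and 28.7, 35.0 and 35.7 in SUC3. All diets overlapped for both genes, and their 6 log2 fold changes against control lay between -0.08 and 0.10.

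Among the mitochondrial ligases PARS2, for proline, stood below control in all succinate diets. Control libraries were at 4.34, 4.14 and 4.64 CPM, SUC1 at 4.03, 3.81 and 2.89, SUC2 at 3.14, 3.25 and 2.16, and SUC3 at 3.21, 2.18 and 3.29 CPM. No succinate library reached the lowest control, and no other ligase lay apart from control in all 3 diets. The share of all tested genes that lay apart in all 3 was not counted, and the 3 comparisons use the same control libraries. The log2 fold changes were -0.29 in SUC1, -0.62 in SUC2 and -0.60 in SUC3 (edgeR adjusted p = 0.889, 0.261 and 0.399). With 35 to 81 counts per library it was also the mitochondrial ligase of the lowest FPKM.

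EARS2, for glutamate, had 5.59, 7.30 and 6.36 CPM in control, 4.87, 3.81 and 4.82 in SUC1, 4.24, 4.49 and 3.95 in SUC2, and 5.98, 4.20 and 5.21 in SUC3. SUC1 and SUC2 lay below control, and SUC3 overlapped it. The log2 fold changes were -0.51 in SUC1 (SE 0.22; edgeR adjusted p = 0.614) and -0.60 in SUC2 (SE 0.22; adjusted p = 0.177). EARS2 overlaps UBFD1 on the other strand, and the use of strand in counting is not stated, so reads of the 2 genes cannot be told apart.

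MARS2, for methionine, pointed the other way, with 2.90, 2.5 and 2.92 CPM in control, 2.58, 2.71 and 4.61 in SUC1, 3.76, 3.66 and 5.86 in SUC2, and 1.71, 2.63 and 3.23 in SUC3. SUC2 lay above control and above SUC3 with no overlap. The log2 fold change was 0.67 for SUC2 against control (SE 0.33; edgeR adjusted p = 0.316) and -0.81 for SUC3 against SUC2 (adjusted p = 0.372). The FPKM ratio of MARS1 to MARS2 was 5.54 ± 1.21 in control and 3.03 ± 0.352 in SUC2 (SD, n = 3 each).

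VARS2, for valine, had 5.45, 7.13 and 9.75 CPM in control, 9.37, 6.82 and 6.81 in SUC1, 5.86, 4.26 and 5.36 in SUC2, and 7.27, 6.16 and 4.85 in SUC3. The SUC2 and control libraries overlapped. Its log2 fold change was -0.53 in SUC2 (SE 0.26; edgeR adjusted p = 0.317).

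IARS2 had 107, 117 and 108 CPM in control, 117, 109 and 112 in SUC1, 114, 125 and 111 in SUC2, and 80.2, 112 and 101 in SUC3. The diets overlapped, and the low SUC3 value was again replicate 1. The log2 fold change in SUC3 was -0.18 (SE 0.15; edgeR adjusted p = 0.672).

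**Figure D4:**
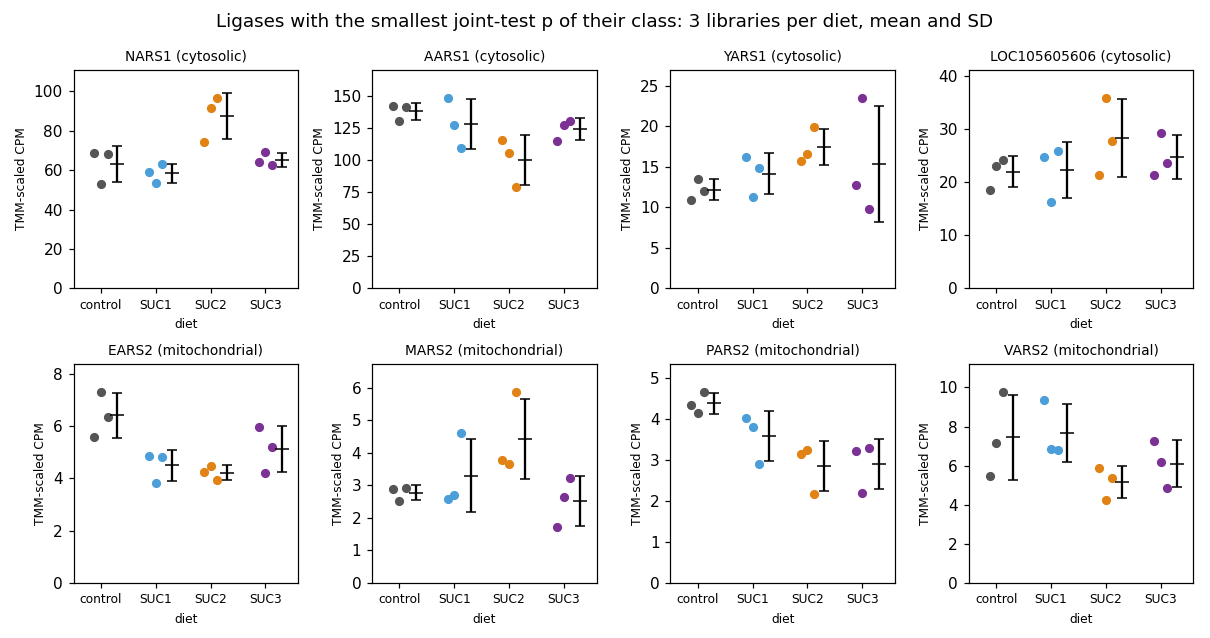
TMM-scaled CPM of 8 ligases by diet, 4 cytosolic above and 4 mitochondrial below; points are libraries and the bars beside them show the mean and SD of 3. NARS1 in SUC2 lies at 74.2 to 96.4 CPM, above all other libraries, and PARS2 lies below its control libraries in all succinate diets.

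Ligases whose libraries did not overlap those of control numbered, higher and lower, 2 and 4 of 40 in SUC1, 3 and 5 of 40 in SUC2, and 1 and 4 of 40 in SUC3. The same held for 7.4% and 6.81% of all tested genes in SUC1, 11.5% and 10.6% in SUC2, and 9.15% and 8.88% in SUC3. Besides those described, further members lay apart, and the following are named for that reason after their values were seen. SARS2, for mitochondrial serine tRNA, was at 5.28 to 5.96 CPM for control, 6.25 to 8.05 for SUC1 and 7 to 8.32 in SUC3. LARS2 was higher and WARS2 lower in SUC1, FARS2 was lower in SUC2, and RARS2 and LOC101121599 were lower in SUC3.

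Between succinate diets, ligases without overlap, higher and lower, numbered 1 and 3 of 40 for SUC2 against SUC1, beside 7.23% and 6.43% of all tested genes. They numbered 2 and 4 of 40 for SUC3 against SUC1, beside 5.97% and 6.06%, and 0 and 4 of 40 for SUC3 against SUC2, beside 7% and 7.46%. NARS1 and MARS2 were among the last 4.

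The histidine pair sits head to head on chromosome 5. HARS1 on the minus strand and LOC101121599 on the plus strand are separated by 79 bases. LOC101121599 was at 21.7, 21.2 and 23.4 CPM in control and 18.7, 18.3 and 18.1 CPM in SUC3, which did not overlap, with a log2 fold change of -0.27 (SE 0.15; edgeR adjusted p = 0.487). HARS1 was at 12.3, 14.7 and 9.57 CPM in control and 13.7, 8.91 and 11.8 in SUC3, and these overlapped (log2 fold change -0.09). The other close members, EPRS1 and IARS2 on chromosome 12, are 46815 bases apart.

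As classes, the mitochondrial ligases had lower medians than the cytosolic ones in SUC2 and SUC3. The median log2 fold change against control was -0.05 for cytosolic and -0.06 for mitochondrial ligases in SUC1, 0.04 and -0.20 in SUC2, and -0.09 and -0.22 in SUC3. The mitochondrial log2 fold change was negative for 10 of 17 members in SUC1, 12 of 17 in SUC2 and 15 of 17 in SUC3. For the cytosolic class it was negative for 12, 7 and 14 of 21. Over all tested genes it was above 0 for 48.3%, 49.8% and 49% of genes.

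Between SUC2 and SUC1 the median log2 fold change was 0.02 for cytosolic and -0.10 for mitochondrial ligases, positive for 13 of 21 and 5 of 17, beside 51.6% of all tested genes. For SUC3 against SUC1 the medians were -0.04 and -0.12, positive for 9 of 21 and 5 of 17, beside 49.8%. For SUC3 against SUC2 they were -0.18 and -0.01, positive for 5 of 21 and 8 of 17, also beside 49.8%. These medians depended on the setting: over 25 alternatives the mitochondrial median ran from -0.11 to 0.03 for SUC2 against SUC1 (above 0 in 3) and from -0.11 to 0.04 for SUC3 against SUC2 (above 0 in 4). The cytosolic median ran from -0.06 to 0.14 for SUC2 against SUC1 (below 0 in 1), from -0.14 to 0.07 for SUC3 against SUC1 (above 0 in 5) and from -0.22 to 0.06 for SUC3 against SUC2 (above 0 in 1). The mitochondrial median for SUC3 against SUC1 lay below 0 in 25 of 25, some of which left the rows of that class unchanged.

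The enzymes belong to 2 structural classes that differ in the fold of the catalytic domain. Against control the 20 class I ligases had medians of -0.01, 0.01 and -0.15 in SUC1, SUC2 and SUC3, and the 19 class II ligases -0.07, -0.02 and -0.09. EPRS1, which holds a domain of each, was left out of both. Neither class had a member that passed in edgeR.

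By library, the median deviation of the mitochondrial class from the control mean of each gene (log2 CPM) was -0.22, -0.10 and -0.27 in SUC2 and -0.11, -0.21 and -0.23 in SUC3. It was -0.10, -0.03 and -0.09 in SUC1 and -0.04, 0.00 and 0.01 in the control libraries that define the 0. For the cytosolic class it was -0.05, 0.06 and 0.09 in SUC2 and -0.27, 0.01 and -0.04 in SUC3. For the mitochondrial class all SUC2 and SUC3 libraries lay below the control libraries. The cytosolic values overlapped or straddled those of control in each diet. Control values lie near 0 partly because their own mean defines it, and all succinate libraries share that reference. Their deviations are therefore not independent of each other.

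**Figure D5:**
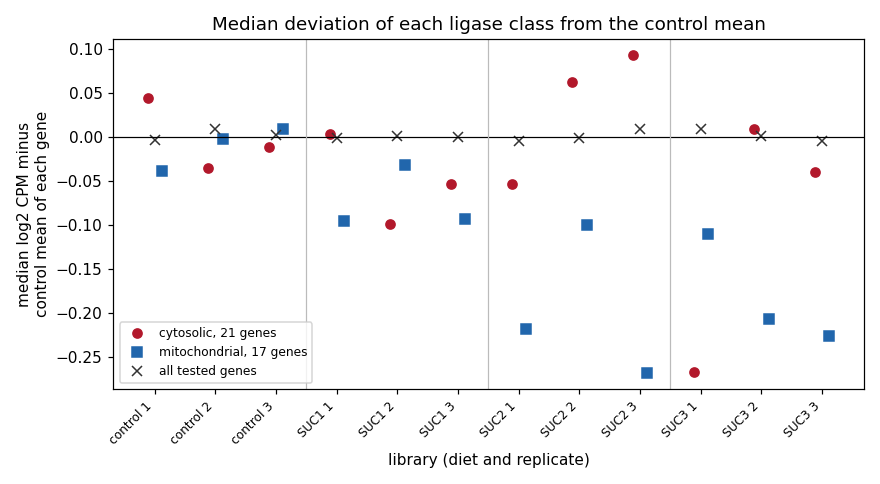
Median over the genes of a class of log2 CPM minus each gene's control mean, for each of 12 libraries; red circles are the 21 cytosolic, blue squares the 17 mitochondrial ligases and crosses all tested genes. The mitochondrial medians in SUC2 and SUC3 lie between -0.27 and -0.10, and the crosses stay near 0.

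The difference did not appear in summed levels, which the abundant members set. The summed FPKM of the cytosolic class over that of the mitochondrial class was 3.86 ± 0.165 (SD, n = 3) for control, 3.70 ± 0.0624 for SUC1, 3.93 ± 0.289 for SUC2 and 3.89 ± 0.423 for SUC3 (n = 3 for each). The ranges of SUC2 and SUC3 each spanned that of control. No p is given for the class medians, since the members were chosen with earlier results of these data known.

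By the median correlation of their pairs the ligases did not move as a block from library to library, though single pairs differed widely. Over the 12 libraries, the median Pearson correlation of log2 CPM was 0.10 over the 210 pairs of cytosolic ligases, 0.03 over the 136 mitochondrial pairs and -0.01 over the 357 pairs across classes, beside -0.00 over pairs of all tested genes. Single pairs were for instance RARS1 with TARS1 at 0.82, LARS2 with VARS2 at 0.78 and CARS1 with RARS1 at -0.78. All these values share the same libraries and depths and are given as a description.

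Genes around the ligases were read from 14 lists of translation, tRNA and amino acid genes, 142 tested genes in all. In edgeR 0 of 142 passed in each diet against control. At an unadjusted p under 0.05 they numbered 8, 26 and 17 of 142 in SUC1, SUC2 and SUC3, 5.63%, 18.3% and 12% beside the 7.61%, 17.9% and 12.4% of all tested genes given above. DESeq2 called 0 in SUC1, 7 higher and 1 lower in SUC2, and 3 higher and 1 lower in SUC3, where it called 0.526%, 6.31% and 1.81% of all tested genes.

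Mammalian mitochondria have no glutamine ligase and instead amidate a mischarged glutamate tRNA with the enzyme made of GATB, GATC and QRSL1. GATC was at 21.2, 28.5 and 24.4 CPM in control and 17.6, 19.4 and 14.9 CPM in SUC2, with no overlap, and a log2 fold change of -0.51 (SE 0.18; edgeR adjusted p = 0.156). GATB had a log2 fold change of -0.54 in SUC2 (adjusted p = 0.263) and QRSL1 of 0.13. MTFMT, which formylates the initiator methionine tRNA of mitochondria, had log2 fold changes of 0.48, -0.17 and 0.03 in SUC1, SUC2 and SUC3. These 4 genes had no common direction.

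The mitochondrial translation factors mostly lay below control. Their log2 fold change was negative for 11 of 12 in SUC1, 9 of 12 in SUC2 and 10 of 12 in SUC3, with medians of -0.14, -0.20 and -0.07, and none passed in edgeR. TUFM, the mitochondrial elongation factor that carries charged tRNA to the ribosome, had log2 fold changes of -0.18, -0.30 and -0.02. MTRES1, a factor of mitochondrial ribosome rescue, had -0.43, -0.84 and -0.64 (edgeR adjusted p = 0.821, 0.154 and 0.395). The 13 mitochondrial tRNA modification genes were negative for 7, 9 and 8, with medians of -0.16, -0.11 and -0.10. YRDC of that list went the other way and had 3.24, 3.27 and 3.04 CPM in control and 5.86, 7.21 and 6.66 CPM in SUC2 (edgeR adjusted p = 0.0596, DESeq2 adjusted p = 0.00840).

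Of the 10 cytosolic elongation and termination genes 8, 7 and 7 were negative, with medians of -0.11, -0.07 and -0.16. The 9 proofreading and synthetase-like genes were negative for 6, 3 and 4, with medians of -0.07, 0.11 and 0.07. The 15 genes of tRNA processing, splicing and export were negative for 10, 5 and 9, with medians of -0.02, 0.09 and -0.10. The 3 scaffold genes were negative for 2, 1 and 2, as described above.

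The amino acid response showed values in both directions. Of 15 tested genes of the ATF4 list, 11, 12 and 9 were positive in SUC1, SUC2 and SUC3, with medians of 0.36, 0.31 and 0.16. NUPR1, a stress-induced chromatin protein, had 10.3, 4.79 and 4.99 CPM in control and 22.2, 9.22 and 31.9 CPM in SUC2, with a log2 fold change of 1.66 (SE 0.41; edgeR adjusted p = 0.0655, DESeq2 adjusted p = 0.00427, range over alternatives 0.00427 to 0.228). CEBPB, a transcription factor that pairs with ATF4, had a log2 fold change of 0.83 in SUC2 (SE 0.22; edgeR adjusted p = 0.0790, DESeq2 adjusted p = 0.0151). ATF4 itself was at 527, 534 and 396 CPM in control and 483, 584 and 417 in SUC2, and ASNS, which makes asparagine, was at 0.917 to 1.36 CPM in control and 0.650 to 1.41 CPM in SUC2; both were added after their values were seen, and both overlapped. CHAC1 had 0, 0.272 and 0 CPM in control and 2.56, 9.24 and 0.419 CPM in SUC3.

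Of the 12 genes of eIF2 kinases and phosphatases, which govern that response, 7, 8 and 5 were positive, with medians of 0.03, 0.16 and -0.06. PPP1R15A, the inducible subunit of the eIF2 phosphatase, had 66.1, 39.2 and 50 CPM in control and 131, 66.8 and 121 CPM in SUC2. SUC2 lay above control without overlap, with a log2 fold change of 1.04 (edgeR adjusted p = 0.0756, DESeq2 adjusted p = 0.0132).

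Amino acid transporters were the list with the largest median in SUC2 among these 14. Of 12 tested, 6, 9 and 5 were positive, with medians of -0.01, 0.50 and -0.08. SLC7A8, which carries large neutral amino acids, was at 15.4, 45.6 and 49.0 CPM in control, 63.0, 24.7 and 59.6 in SUC1, 157, 138 and 248 in SUC2 and 11.4, 72.2 and 19.8 in SUC3. SUC2 stood above all other libraries, with a log2 fold change of 2.30 (SE 0.62; edgeR adjusted p = 0.0790, DESeq2 adjusted p = 0.0262, range over alternatives 0.0260 to 0.228). SLC7A1, for cationic amino acids, had a log2 fold change of 1.92 in SUC2 (edgeR adjusted p = 0.0883, DESeq2 adjusted p = 0.0106). In SUC3 its DESeq2 log2 fold change was 1.78 (DESeq2 adjusted p = 0.0457), and no transporter passed there in edgeR.

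For amino acid synthesis 7, 5 and 5 of 10 were positive, with medians of 0.13, -0.07 and -0.01, and GLUL, glutamine synthetase, had a log2 fold change of 1.42 in SUC2 (SE 0.44; edgeR adjusted p = 0.114, DESeq2 adjusted p = 0.0203). The 10 serine, glycine and one-carbon genes were positive for 6, 6 and 4, with medians of 0.07, 0.13 and -0.20. MTHFD1 of that list had log2 fold changes of -0.57, -0.72 and -0.81 (edgeR adjusted p = 0.513, 0.0931 and 0.165). Its DESeq2 adjusted p was 0.0333 in SUC2 and 0.0329 in SUC3. The 13 partners of leucine and lysine sensing by mTORC1 were negative for 9 in each diet, with medians of -0.16, -0.12 and -0.13, and the 5 tested MYC and growth regulators were positive for 3, 3 and 2, with medians of 0.04, 0.25 and -0.10.

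Markers of other cell types had different summed levels by diet beside these values. Summed over the list, 7 immune markers were at 17.7 to 28.7 CPM in control and 40.8 to 53.5 CPM in SUC2, with SUC1 at 26.1 to 34.5 and SUC3 at 23.0 to 24.1 CPM. The 5 adipocyte markers were at 44.7 to 52.2 CPM for control, 105 to 154 for SUC1, 62.3 to 173 for SUC2 and 66.8 to 247 for SUC3, and the 6 fibroblast and matrix markers were at 420 to 755, 829 to 1754, 817 to 1018 and 939 to 1388 CPM in the same order of diets. The 4 endothelial markers were at 223 to 257, 244 to 364, 226 to 467 and 288 to 628 CPM, and the muscle fibre markers at 115631 to 194847, 129024 to 147839, 108004 to 117318 and 116289 to 154989 CPM. No marker gene of these lists passed in edgeR. All 6 tested immune markers were positive in SUC2, and the fibroblast and adipocyte markers were all positive in each diet. At an unadjusted edgeR p under 0.05 the immune list had 1, 5 and 0 of 6 in SUC1, SUC2 and SUC3. The fibroblast list had 4, 1 and 2 of 6, and the adipocyte list 3, 1 and 3 of 5. The endothelial list had 0, 1 and 3 of 4, and the fibre list 1 of 8 in each diet. The shares of all tested genes were 7.61%, 17.9% and 12.4%. Of defining markers CD163 was not in the table and CD79A had 0 to 10 counts per library. The liver genes ALB and APOA1, which muscle lacks, summed to 0.392 to 23.9 CPM, and ALB was at 0 CPM in 4 of 12 libraries. In bulk muscle fewer cells of a type and less RNA per cell cannot be told apart, and the part of these cell types in the ligase values was not tested.

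Leaving out the 3 libraries that lay apart left SUC2 with a lone library assumed to vary like the other groups. Only effect sizes are therefore given for that fit. The mitochondrial median was then -0.21 in SUC2 and -0.26 in SUC3, and the cytosolic median in SUC2 moved from 0.04 to -0.05. The mitochondrial median lay below 0 under each of 25 alternative settings in each diet, though not all of these could move it. Leaving out the low-count members and counting GARS1 and KARS1 as cytosolic reused the main fit with the mitochondrial rows unchanged. Summing LARS1 with LOC105605606 also changed no mitochondrial row.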

How the data were processed

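Longissimus dorsi RNA of 12 libraries, 3 per diet, was analysed. The deposited table held read counts per gene, which were used as deposited, and FPKM values, which the authors had scaled by gene length and library total, since dividing the counts by both gave the same values (largest relative difference 5.11e-15). Aligner, counting program and use of strand were not given in the sources used here. GRCm38 and mm10, both mouse assemblies, are named per the submitters' processing notes, yet the table carries sheep identifiers. Coordinates follow the table, and chromosome names came from the ARS-UI_Ramb_v3.0 gene table, which matched 39 of 40 ligases and had the same start and end for 20. No column of values was left unused (0).

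Genes were kept by filterByExpr, scaled by TMM and fitted with the quasi-likelihood model of edgeR 4.0.16 in R 4.3.3 to the 12 libraries together, with a coefficient per diet (8 residual degrees of freedom). Two-sided p-values were adjusted by Benjamini-Hochberg over 13319 genes, with a threshold of 0.05. Each SE was derived from the fold change and its F statistic. The alternatives were DESeq2 1.42.0, limma 3.58.1 on log2(FPKM + 1) and log2(FPKM + 0.1), other scalings and filters, a pairwise fit, a replicate block and each library left out. The code was tested on simulated counts. Replicate numbers did not pair the libraries, since correlations of same-numbered libraries ran from -0.17 to 0.17 (18 pairs). Libraries of a diet differed by more than sampling noise.

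Ligases given by library were those with the smallest joint-test p (6 cytosolic, 4 mitochondrial), the highest and the lowest of each class by FPKM, and GARS1 and KARS1. EPRS1, LOC101121599, HARS1 and FARSA fell outside this rule and were chosen after their values were seen, EPRS1 and LOC101121599 because they lay apart from control in a diet, HARS1 as the neighbour of LOC101121599 and FARSA as the partner subunit of FARSB. SARS2 and LARS1 were likewise given by range. Of the partner lists the 4 genes with the smallest joint-test p could be named. The members and lists were chosen with earlier results of these data known. Values of single members were left out where an item is not reported here; class counts and medians include all members.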

Additional observations from a re-analysis of the deposited data

How the results depend on the processing

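The count of ligases past the threshold was 0 in all 167 alternative values for the 7 tests, and the lowest adjusted p among them was 0.0585 (DESeq2, joint test, against 0.221 in edgeR). The values that only leave out low-count members reuse the main fit and could not differ from 0. Of 150 values of the class medians against control 140 stayed within the spread between libraries and 10 moved, of which the cytosolic median in SUC2 without the 3 libraries changed sign. Part of the 140 could not differ for the mitochondrial class, since some settings changed only other rows. The mitochondrial median log2 fold change in SUC2, -0.20, became -0.14 with library totals only, -0.10 with limma on log2(FPKM + 1) and -0.13 on log2(FPKM + 0.1). In SUC3, -0.22, it became -0.14 and -0.17 on these 2 scales. FPKM is scaled by library total without TMM, and the added constant shrinks changes of low genes. Which of these moved the medians was not tested. The cytosolic median in SUC2, 0.04, became -0.054 without the 3 libraries that lay apart, an alternative chosen after seeing the data; its cause was not tested. With each library left out in turn, the mitochondrial median ran from -0.16 to -0.041 in SUC1, from -0.23 to -0.12 in SUC2 and from -0.27 to -0.17 in SUC3. Without SUC1 replicate 2 it was -0.16 in SUC1, and without SUC2 replicate 3 it was -0.12 in SUC2.

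Of 1397 values for single genes 1368 kept their direction and their side of the threshold, 26 came under it, all for partner genes, and 3 reversed when a library was left out. These were QRSL1 in SUC1 (-0.0051 to 0.31), EEF1E1 in SUC2 (-0.0015 to 0.56) and KARS1 in SUC2 (-0.24 to 0.045); the values below or above 0 came without control replicate 2, SUC2 replicate 2 and SUC2 replicate 3. The fit with the replicate number as a block also called 0 ligases in each test and changed no call for a ligase. Of all genes it called 122, against 191 in the main fit, in SUC2 against control. In each other test the block fit called at most 2 of all genes.

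Depth limited TARS3 and LOC101102763, whose counts stayed at 14 or fewer. Near copies and genes overlapping on the other strand (EARS2, LOC105605606, MARS1 and YARS2) limit the values of those rows. TARS2 overlaps RPRD2 and LOC101102763 overlaps DNAH12 on the same strand, which limits these rows too.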
